A study of Mus musculus with 4 samples.

Results

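The 9 genes Mrc1, Cd163, Stab1, Lyve1, Folr2, Pf4, F13a1, Cbr2 and Ms4a7 are markers of the macrophages at the borders of the brain. They are a list fixed by name as markers of perivascular and meningeal macrophages, chosen with earlier results of these data known. The list holds 9 of the 37325 genes named on the array. They are covered by 14 probes, of which 12 were above background on all 4 arrays and 2 on none, so that each gene was measured on every array. RNA came from the hippocampus of Rp58 hetero-KO mice of 4 months, WT mice of 4 months, Rp58 hetero-KO mice of 18 months and WT mice of 18 months. Hetero-KO mice carry 1 knocked-out copy of Rp58, whose current symbol is Zbtb18, a zinc finger repressor of transcription. The labels name neither the strain, the sex nor the design of the knocked-out allele. For the older groups the age label gives 18 months, while the descriptions give a range that starts at 12 months. Total RNA of 3 samples was pooled per group, and 200 ng of each pool was labelled with Cy3 and put on 1 Agilent array, so each group is 1 array and a difference between 2 arrays has no replicate check.

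Border macrophages live in the perivascular spaces, the meninges and the choroid plexus, outside the brain tissue proper that microglia occupy. They are long-lived scavenger cells that take up proteins, lipoproteins and debris from blood vessel walls and cerebrospinal fluid, and many of their markers are receptors for such cargo. A hippocampal dissection holds them in small numbers, along vessels and in any attached meninges or choroid plexus. In such bulk RNA, fewer cells of a type and less RNA per cell cannot be told apart.

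The 9 probes that represent the genes are shown because every level below is the brightness of 1 of these spots. Each probe is 60 bases long. The line gives its position in mouse genome build mm9, the build of the file headers, and its last 30 bases, 5′ to 3′, with the polyadenylation signal AATAAA in capitals.
Mrc1 probe (chr2:14253273-14253332, plus strand): attgagaactgtatttatccacatgtagaa
Cd163 probe (chr6:124280484-124280543, plus strand): aaaaatgttattAATAAAgaaacggaaatc
Lyve1 probe (chr7:117994171-117994230, minus strand): tagctctcattcttttccagcaagaagaac
F13a1 probe (chr13:36959214-36959273, minus strand): ctgggaacttagtactaacccccgaggttc
Pf4 probe (chr5:91202275-91202334, plus strand): tcaattgtgttacaagactcctggaatctt
Cbr2 probe (chr11:120590825-120590884, minus strand): cactttgttgggctcatttgcctaAATAAA
Ms4a7 probe (chr19:11395903-11395962, minus strand): tcagctttggtagatcctAATAAAcatctg
Folr2 probe (chr7:108988771-108988830, minus strand): ggacgtggtgaagttttatgcttcctttat
Stab1 probe (chr14:31952288-31952347, minus strand): cagaggctctgagaagacacagaccatttt
AATAAA was found in 3 of the 9 representing probes, those of Cd163, Cbr2 and Ms4a7, and in 9.77% of all 56605 probes. Where each probe lies relative to exons and untranslated regions was not analysed here.

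The arrays were close in signal scale and in the share of spots above background, with both somewhat lower on the 18-month arrays. The 75th percentile of the signal, to which each array was scaled, lay between 1714 and 2111 intensity units, and 77.9% to 81.9% of spots were well above background. Zbtb18 itself had a level of 15.2 in hetero-KO and 17.5 in WT at 4 months, and of 21.4 in hetero-KO and 18.9 in WT at 18 months, so its probe did not show a lower level in hetero-KO at both ages. The place of that probe relative to the knocked-out part is not known here, so it does not check the labels. The Y-linked genes Eif2s3y, Ddx3y and Uty were not above background on the hetero-KO array of 4 months and were above it on the other 3, while Kdm5d, also Y-linked, was above it on all 4, with 0.0845 in hetero-KO and 0.0880 in WT at 4 months. Xist was above background on both 4-month arrays and on neither 18-month array. The sex of the pooled mice is not given, and it cannot be told apart from genotype at 4 months or from age. The 13 hippocampal neuron markers, such as Slc17a7 and Wfs1, were all measured on every array.

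A level below is the spot signal divided by the 75th percentile of its array, and differences are log2 values, hetero-KO minus WT within an age or 18 minus 4 months within a genotype. The error after a difference is the scanner software's own error of the spots, not a replicate error. At 18 months 8 of the 9 genes were higher in hetero-KO, with a median log2 difference of 0.52. At 4 months 4 of the 9 were higher and 5 lower, with a median of -0.26. Among all genes measured on both arrays, the hetero-KO value was above WT for 47.9% and below it for 52.1% at 18 months, and above it for 44.4% and below it for 55.6% at 4 months, with medians of -0.01 and -0.02. No member differed by 2-fold or more between genotypes at either age, although at 18 months Lyve1 passed 2-fold with quantile normalization (1.02) and Cd163 with its 2 probes averaged (1.24), of which 1 was not above background. Such a difference was seen upward in 0.525% and downward in 0.612% of genes at 18 months, and in 0.69% and 0.634% at 4 months.

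**Figure D1:**
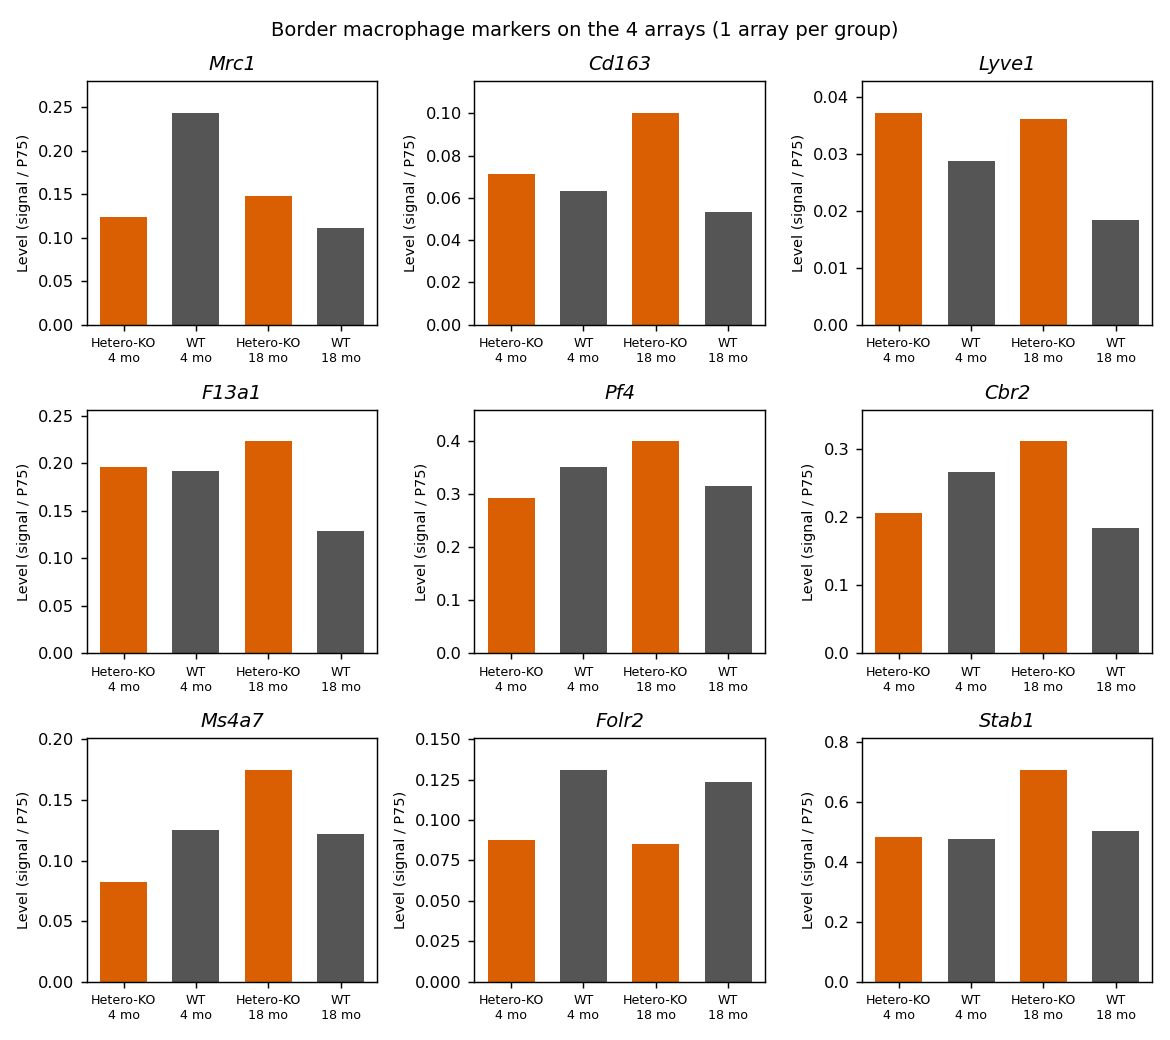
Level of each marker on the 4 arrays, as spot signal divided by the array's 75th percentile (P75, linear axis from 0), with hetero-KO in orange and WT in grey and 1 array per bar, hence no error bars. The hetero-KO bar of 18 months is the highest of the 4 for 6 of the 9 genes, and the WT bar of 18 months is the lowest for 5.

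The scavenger and uptake receptors come first. Mrc1, the mannose receptor CD206, had a level of 0.124 in hetero-KO and 0.243 in WT at 4 months, and of 0.148 in hetero-KO and 0.112 in WT at 18 months. The WT array of 4 months was the high one and the other 3 lay close together. Its log2 difference was -0.97 ± 0.20 at 4 months, a level 1.96-fold lower in hetero-KO, and 0.41 ± 0.21 at 18 months. Only 0.68% of all genes had a lower value at 4 months.

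Cd163, the receptor that clears haemoglobin bound to haptoglobin, had a level of 0.0711 in hetero-KO and 0.0634 in WT at 4 months, and of 0.100 in hetero-KO and 0.0531 in WT at 18 months. The hetero-KO array of 18 months stood above the others. This gave a log2 difference of 0.17 ± 0.21 at 4 months, within the spot error, and 0.92 ± 0.21 at 18 months, which was above 99.3% of all genes. Averaged with its other probe, which was above background on no array, the values were -0.40 at 4 months and 1.24 at 18 months.

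Stab1, stabilin-1, a large scavenger receptor that takes up modified lipoproteins and extracellular matrix fragments, had a level of 0.483 in hetero-KO and 0.476 in WT at 4 months, and of 0.709 in hetero-KO and 0.503 in WT at 18 months. The hetero-KO array of 18 months was the high one and the other 3 were nearly level. Its log2 difference was 0.02 ± 0.20 at 4 months and 0.49 ± 0.20 at 18 months.

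Lyve1, a receptor for hyaluronan shared by perivascular macrophages and lymphatic endothelium, had a level of 0.0373 in hetero-KO and 0.0288 in WT at 4 months, and of 0.0362 in hetero-KO and 0.0184 in WT at 18 months. Both hetero-KO arrays lay above both WT arrays. Between genotypes Lyve1 differed by 0.37 ± 0.22 at 4 months and 0.98 ± 0.24 at 18 months, which is 1.97-fold. At 18 months the value was 0.32 with normexp and 1.02 with quantile normalization.

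Folr2, the folate receptor beta of tissue macrophages, ran the other way, with a level of 0.0875 in hetero-KO and 0.131 in WT at 4 months, and of 0.0849 in hetero-KO and 0.124 in WT at 18 months. Both hetero-KO arrays lay below both WT arrays, and neither genotype differed between ages by more than the spot error. Between genotypes Folr2 differed by -0.58 ± 0.21 at 4 months and -0.54 ± 0.21 at 18 months. It was the only one of the 9 that was lower in hetero-KO at both ages.

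Among the secreted products, Pf4, a chemokine named platelet factor 4 that platelets and border macrophages both make, had a level of 0.293 in hetero-KO and 0.351 in WT at 4 months, and of 0.399 in hetero-KO and 0.315 in WT at 18 months. Its values spanned 1.36-fold, the narrowest range of the 9. The log2 difference was -0.26 ± 0.20 at 4 months and 0.34 ± 0.20 at 18 months.

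F13a1, the catalytic subunit of coagulation factor XIII, which cross-links fibrin and matrix proteins, had a level of 0.196 in hetero-KO and 0.192 in WT at 4 months, and of 0.223 in hetero-KO and 0.129 in WT at 18 months. Only the WT array of 18 months stood apart, below the other 3. In log2 terms F13a1 differed by 0.03 ± 0.20 at 4 months and 0.79 ± 0.21 at 18 months. A dimmer F13a1 probe gave -0.05 and 0.83.

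Cbr2, a carbonyl reductase that reduces aldehydes and ketones, had a level of 0.206 in hetero-KO and 0.267 in WT at 4 months, and of 0.312 in hetero-KO and 0.184 in WT at 18 months. The order of the genotypes turned between the ages. The log2 difference was -0.37 ± 0.20 at 4 months and 0.76 ± 0.20 at 18 months. A dimmer Cbr2 probe gave -0.18 and 0.18, the same directions at a smaller size.

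Ms4a7, a membrane protein of the MS4A family that sets border macrophages apart from microglia, had a level of 0.0820 in hetero-KO and 0.126 in WT at 4 months, and of 0.175 in hetero-KO and 0.122 in WT at 18 months. The hetero-KO arrays were the lowest and the highest of the 4, with both WT arrays between them. In log2 terms Ms4a7 differed by -0.62 ± 0.21 at 4 months and 0.52 ± 0.21 at 18 months. A dimmer probe gave -0.79 and 0.52.

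**Figure D2:**
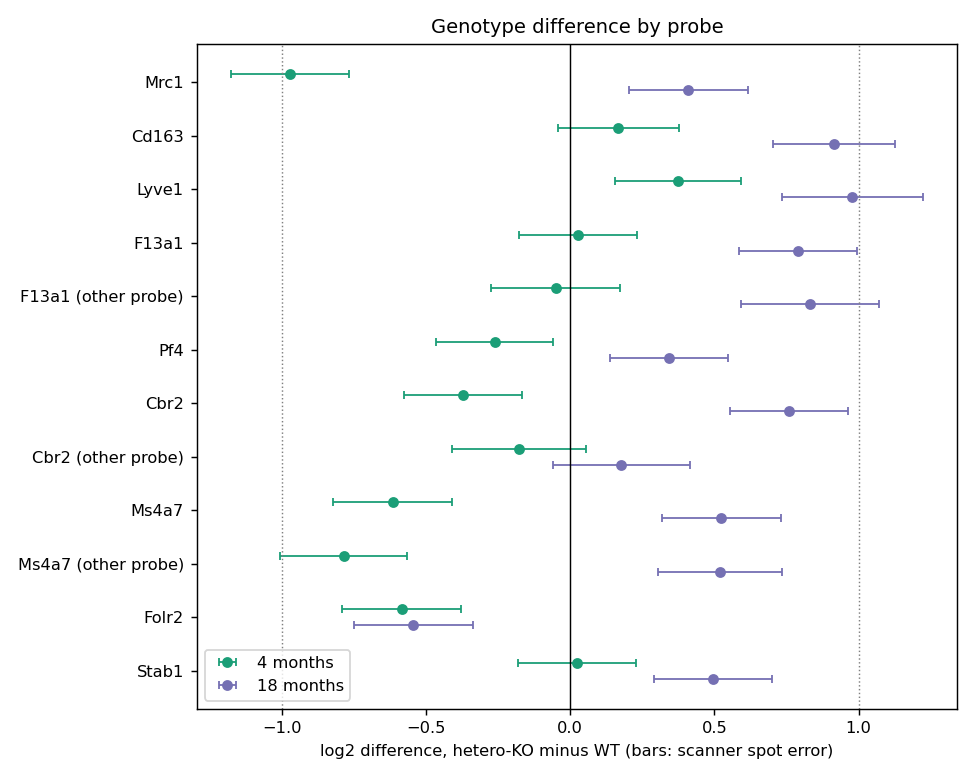
log2 difference of hetero-KO minus WT for the 12 probes above background on all 4 arrays, at 4 months (green) and 18 months (purple), with bars for the scanner's spot error. The 18-month point lies right of the 4-month point for every probe, by least for Folr2, whose points lie at -0.58 and -0.54.

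At 18 months the 8 higher genes and the 1 lower gene all differed by more than the spot error, as did 10.4% of all genes upward and 13.8% downward. At 4 months 1 gene was higher and 5 were lower by more than it, against 8.82% and 16.3% of all genes. Mrc1, Pf4, Cbr2 and Ms4a7 were lower in hetero-KO at 4 months and higher at 18 months, a pattern seen in 20.8% of all genes measured on the 4 arrays. The genotype difference at 18 months was above that at 4 months for 9 of the 9 genes, with a median excess of 0.75, from 0.04 for Folr2 to 1.38 for Mrc1, and for 51.8% of all genes. With normexp background correction the count was 8 of 9, with Folr2 at -0.04. With 1 array per group this excess was not tested.

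**Figure D3:**
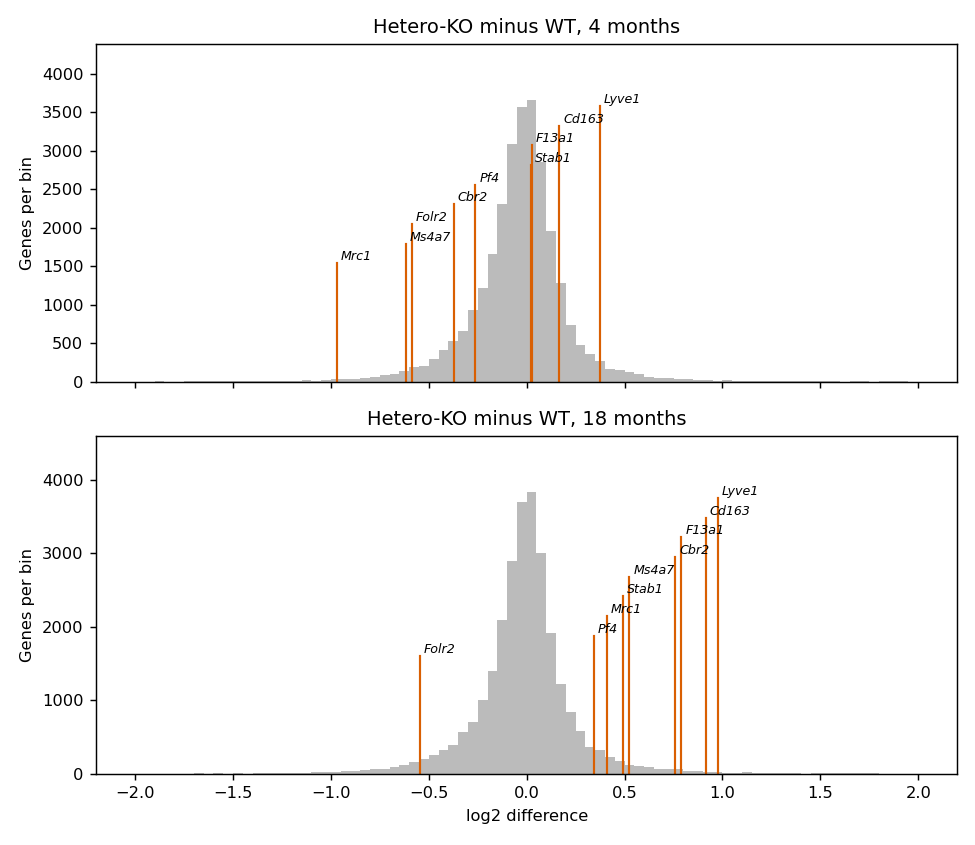
Number of genes per bin of the log2 difference, hetero-KO minus WT, at 4 months (top) and 18 months (bottom), in grey for all genes measured on both arrays; 70 and 39 genes beyond 2 in size are not drawn. Orange lines mark the 9 markers, with heights that only separate the names. At 18 months 8 of the 9 lie right of 0, from 0.34 for Pf4 to 0.98 for Lyve1.

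Between ages, most of the 9 genes were higher at 18 months in hetero-KO and lower in WT, a contrast that was not tested. In hetero-KO 7 of the 9 genes were higher at 18 than at 4 months, with a median of 0.45, where 59.4% of all genes were higher and 40.6% lower. In WT 1 of the 9, Stab1, was higher, with a median of -0.25, where 58.4% of all genes were higher and 41.6% lower. Ms4a7 in hetero-KO was 2.13-fold higher at 18 months, and 1.1% of all genes were 2-fold or more higher there. Mrc1 in WT was 2.18-fold lower at 18 months, and 0.824% of all genes were 2-fold or more lower there and 0.771% higher. With normexp neither passed 2-fold, at 0.84 for Ms4a7 and -0.86 for Mrc1 on the log2 scale. Cd163, F13a1, Pf4, Cbr2, Ms4a7 and Mrc1 were higher with age in hetero-KO and lower with age in WT, as were 15.9% of all genes. The smallest of these differences was that of Ms4a7 in WT, -0.05, which was 0.04 with normexp. It lay within the spot error, as did those of Pf4 in WT, -0.16, and of F13a1 in hetero-KO, 0.19.

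The test used was limma's additive fit of genotype and age across 29076 genes, which leaves 1 residual degree of freedom and takes each genotype effect as equal at both ages. None of the 9 genes rose or fell by genotype at an adjusted p under 0.05. Of all genes, 0.0103% rose and 0% fell, which is 3 and 0 genes, and at an unadjusted p under 0.05 the counts were 1499 higher and 1836 lower. Among the 9, Folr2 had the lowest value, at -0.56 ± 0.10 (SE, limma adjusted p = 0.231), lower in hetero-KO at both ages. Lyve1 followed, at 0.68 ± 0.22 (SE, limma adjusted p = 0.394), and these were the only members with an unadjusted p under 0.05. By age none of the 9 rose or fell either, where 1.47% of all genes rose and 0.65% fell. The lowest value was that of Stab1, at 0.32 ± 0.13 (SE, limma adjusted p = 0.225), and 0 members had an unadjusted p under 0.05, where the counts over all genes were 4878 higher and 2013 lower.

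The direction at 18 months depended on which deposited values were read. The authors' deposited table of all samples equals the scanner files at 4 months, but its 18-month columns match no scanner file. In those values 2 of the 9 genes were higher in hetero-KO at 18 months, with a median of -0.21, and 0 of the 9 were higher at 18 months within hetero-KO. Lyve1, Stab1 and Folr2 had the same sign in both sources at 18 months. Folr2 in that table was far lower at 18 than at 4 months, by a log2 difference of -2.30 in hetero-KO and -2.39 in WT. Other list medians at 18 months turned there too, to -0.35 for meningeal fibroblast markers, -0.22 for red blood cell genes and -0.11 for homeostatic microglia markers. They turned to -0.09 for other border macrophage genes, -0.04 for pan-macrophage genes, -0.18 for dendritic cell genes and -0.12 for mural cell markers. Endothelial markers turned to -0.03, haem and iron handling genes to -0.02, lymphatic endothelium markers to 0.07 and T and B cell genes to 0.03. Signs were kept by choroid plexus markers (-0.98), platelet and megakaryocyte genes (-0.20), macrophage growth factors and regulators (0.04) and hippocampal neuron markers (0.10). The median of monocyte and neutrophil genes was 0.02. By age, hippocampal neuron markers had medians of -1.39 in hetero-KO and -1.53 in WT in those values, against 0.27 and 0.11 on the scanner arrays. Choroid plexus markers had -4.37 in hetero-KO and -3.65 in WT there, against -0.20 and 0.14 on the scanner arrays. The 18-month columns thus differ from the 4-month columns far beyond the 9 genes. Which arrays the 18-month columns come from is unknown.

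The other genes known from border macrophages were followed as a wider list of 30, with 27 measured on all 4 arrays. At 18 months 19 of these 27 were higher in hetero-KO, with a median of 0.18 (0.02 with normexp), and at 4 months 7 of the 27, with a median of -0.21. None of the 29 genes of the list in the limma fit rose or fell by genotype. Ccl8, a chemokine that draws monocytes and lymphocytes, had a level of 0.0109 in hetero-KO and 0.0222 in WT at 4 months, and of 0.156 in hetero-KO and 0.0529 in WT at 18 months. Clec4n, the fungal mannan receptor Dectin-2, had a log2 difference of -0.65 at 4 months and was 2.15-fold higher in hetero-KO at 18 months. Clec10a, a galactose-type C-type lectin, had log2 differences of -0.25 at 4 months and 1.06 at 18 months. These were the 3 of the 27 genes that were 2-fold or more higher in hetero-KO at 18 months, against 0.525% of all genes. At 4 months 1 of the 27, Ccl8, was 2-fold or more lower (2.04-fold), against 0.634% of all genes. The 4-month levels of Ccl8 were near that at which Cd36, also of the list, was not above background (0.00851 in WT at 18 months).

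Of 12 genes of haem and iron handling, a task of Cd163-bearing macrophages, 8 were higher in hetero-KO at 18 months, with a median of 0.03, and 4 at 4 months, with a median of -0.10. Hmox1, haem oxygenase 1, had a level of 0.532 in both genotypes at 4 months, and of 0.961 in hetero-KO and 0.587 in WT at 18 months. By age 3 of the 12 rose, against 1.47% of all genes. Among them were Hp, haptoglobin, and Slc11a1, a metal ion transporter of phagosomes (limma adjusted p of 0.0495 and 0.0496). Of the growth factors and regulators of macrophages, 12 of 13 were higher in hetero-KO at 18 months, with a median of 0.15, and 5 of 13 at 4 months, with a median of -0.03. Irf8, a transcription factor of the macrophage lineage, had -0.02 at 4 months and 0.38 at 18 months. Runx1, a transcription factor of blood cell formation, had -0.09 and 0.36.

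Pan-macrophage genes were higher in hetero-KO at 18 months in 13 of 13 cases, with a median of 0.30, and in 8 of 13 at 4 months, with a median of 0.03. Lyz2, lysozyme, had a level of 2.16 in hetero-KO and 2.63 in WT at 4 months, and of 9.99 in hetero-KO and 5.59 in WT at 18 months. Homeostatic microglia markers were higher in 12 of 14 cases at 18 months, with a median of 0.14, and in 7 of 14 at 4 months, with a median of 0.02. By age 3 of the 13 pan-macrophage genes rose, among them the Fc receptor gene Fcgr3 (limma adjusted p = 0.0355). Of the 14 microglia markers 4 rose, among them Tmem119 (limma adjusted p = 0.0442), against 1.47% of all genes. Without a variance trend 0 of all genes rose by age, and sex cannot be told apart from age here. None of these lists held a gene that rose or fell by genotype.

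Markers of other cells that can lie in or along the hippocampus were followed too. Of 16 meningeal fibroblast markers 11 were higher in hetero-KO at 18 months, with a median of 0.34, and 2 at 4 months, with a median of -0.28. Their summed level was 74.5 in hetero-KO and 87.6 in WT at 4 months, and 95.5 in hetero-KO and 75.5 in WT at 18 months. Most of that sum came from Ptgds, with 55.6 in hetero-KO and 65.2 in WT at 4 months, and 77.1 in hetero-KO and 58.8 in WT at 18 months. The summed level of the 9 genes was 1.58 in hetero-KO and 1.88 in WT at 4 months, and 2.19 in hetero-KO and 1.56 in WT at 18 months. Slc6a13, Aldh1a2 and Fmod, fibroblast genes of the meninges, had 1.14, 1.09 and 1.03 at 18 months. Monocyte and neutrophil genes were higher in 9 of 11 cases at 18 months, with a median of 0.55 and a summed level of 16.1 in hetero-KO and 12.4 in WT, and in 0 of 11 at 4 months, with a median of -0.14 and a summed level of 12.1 in hetero-KO and 12.9 in WT. Red blood cell genes were higher in 7 of 7 cases at 18 months, with a median of 0.27 and a summed level of 106.5 in hetero-KO and 85.7 in WT, and in 0 of 7 at 4 months, with a median of -0.24 and a summed level of 66.2 in hetero-KO and 77.5 in WT. Most of the monocyte and neutrophil sum came from Ly6c2 and Fn1, so it reads mainly these genes. At 18 months Ly6c2 had 10.8 in hetero-KO and 8.86 in WT, and Fn1 had 3.33 in hetero-KO and 2.27 in WT. Ccr2, above background on 1 array, and Ngp, above it on 2, are not among the 11 genes counted. The largest log2 differences of the 11 were those of S100a9 and S100a8, at 1.45 and 1.29 at 18 months and -1.74 and -1.83 at 4 months. The part of fibroblast, blood and monocyte RNA in the values of the 9 genes was not tested.

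Choroid plexus epithelium markers did not share the turn between ages. All 15 were lower in hetero-KO at 18 months, with a median of -0.82 and a summed level of 165.3 in hetero-KO and 214.6 in WT, and all 15 at 4 months, with a median of -0.44 and a summed level of 147.9 in hetero-KO and 179.7 in WT. Their part in the result was not tested. Platelet and megakaryocyte genes, which share Pf4 with macrophages, were higher in 2 of 8 cases at 18 months, with a median of -0.04, and in 6 of 8 at 4 months, with a median of 0.07. Their summed level was 0.559 in hetero-KO and 0.549 in WT at 4 months. At 18 months it was 0.675 in hetero-KO and 0.700 in WT, so the genotypes lay close together at each age. Lymphatic endothelium markers, which share Lyve1, were higher in 2 of 7 cases at 18 months, with a median of -0.15. At 4 months 3 of 7 were higher, with a median of -0.13. This list does not read lymphatic RNA alone, as its gene Prox1 also stands among the hippocampal neuron markers. In hetero-KO at 4 months Prox1 had a level of 1.92 and Flt4, another gene of the list, 0.00867. The parts of platelet RNA in Pf4 and of lymphatic RNA in Lyve1 were not tested.

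Endothelial markers were higher in 10 of 15 cases at 18 months and in 1 of 15 at 4 months, with medians of 0.04 and -0.22. Mural cell markers were higher in 7 of 11 cases at 18 months and in 1 of 11 at 4 months, with medians of 0.04 and -0.17. Dendritic cell genes were higher in 3 of 6 cases at 18 months and in 1 of 6 at 4 months, with medians of 0.10 and -0.08, where the first turned to -0.05 with normexp background correction and -0.02 when all probes per gene were averaged. T and B cell genes were higher in 2 of 8 and 3 of 8 cases, with medians of -0.12 and -0.12. In none of these lists did a gene rise or fall by genotype in the limma fit.

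**Figure D4:**
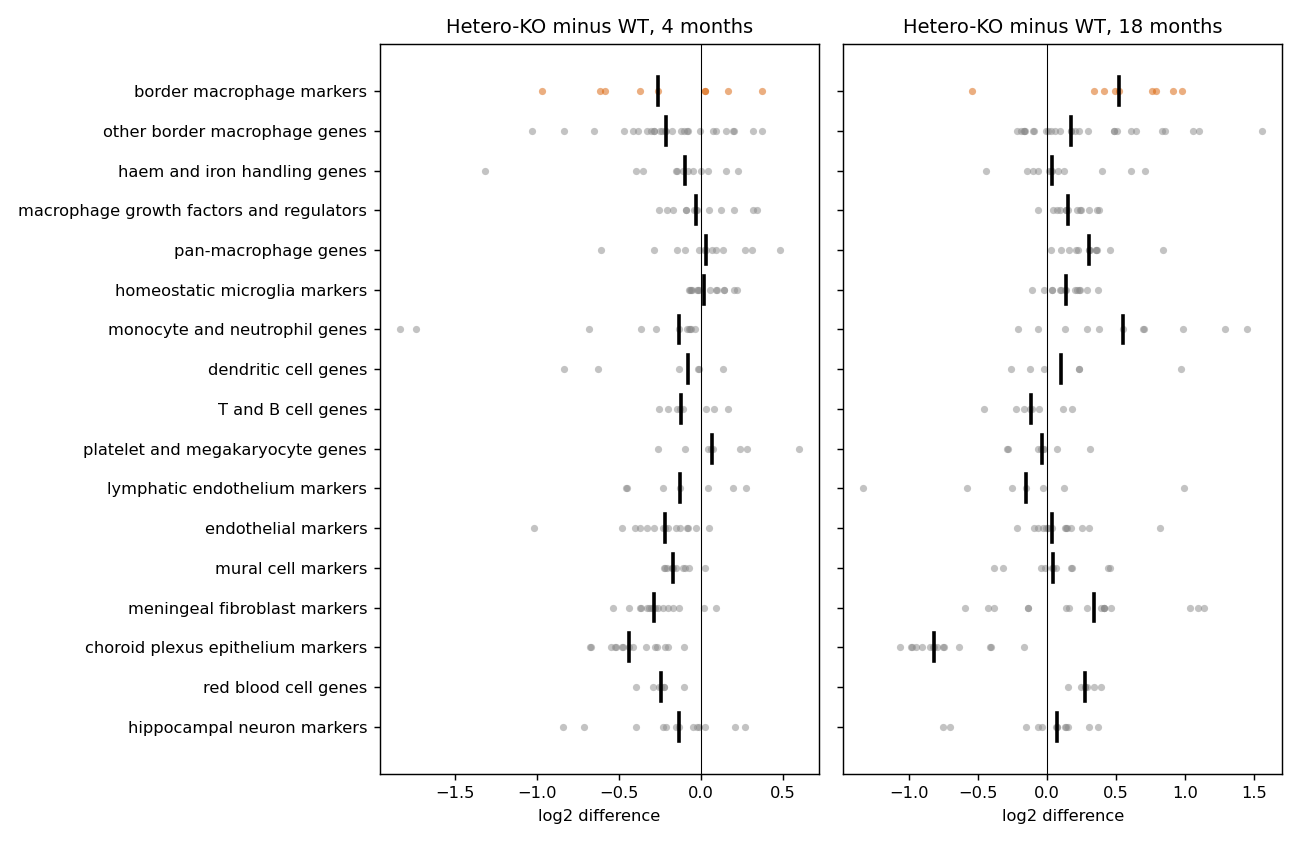
log2 difference of hetero-KO minus WT for each gene (points) of the 9 markers (orange) and of 16 other lists (grey), with a black bar at each list's median, at 4 months (left) and 18 months (right). Genes measured on all 4 arrays are drawn, and a few genes stand in more than 1 list. The median of the 9 markers lies at -0.26 and 0.52, that of meningeal fibroblast markers at -0.28 and 0.34, and that of choroid plexus markers at -0.44 and -0.82.

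The mean profile of the 9 genes was formed from log2 levels centred per gene over the 4 arrays. Pf4 lay closest to it, with a root mean square distance of 0.0921, and Folr2 farthest, with 0.396. Of the 19172 candidates, which are officially named genes seen on each of the arrays, the 10 closest had distances from 0.0257 to 0.0514. They were Anpep, Dram1, Islr, Spaca7, Col4a6, Gm5592, Spaca3, Gxylt2, Cd5 and Mrgprf. Set into the order of the candidates, Pf4 ranked 108, Cbr2 131, F13a1 1557, Stab1 2246 and Cd163 6495. Ms4a7 ranked 15285, Lyve1 16577, Mrc1 16926 and Folr2 17761, so several of the 9 lay farther from their own mean profile than most genes. Anpep, an aminopeptidase on the list of mural cell markers, had a level of 0.509 in hetero-KO and 0.595 in WT at 4 months, and of 0.642 in hetero-KO and 0.469 in WT at 18 months. Many genes can come this close over 4 arrays, so likeness is a description of these arrays alone.

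**Figure D5:**
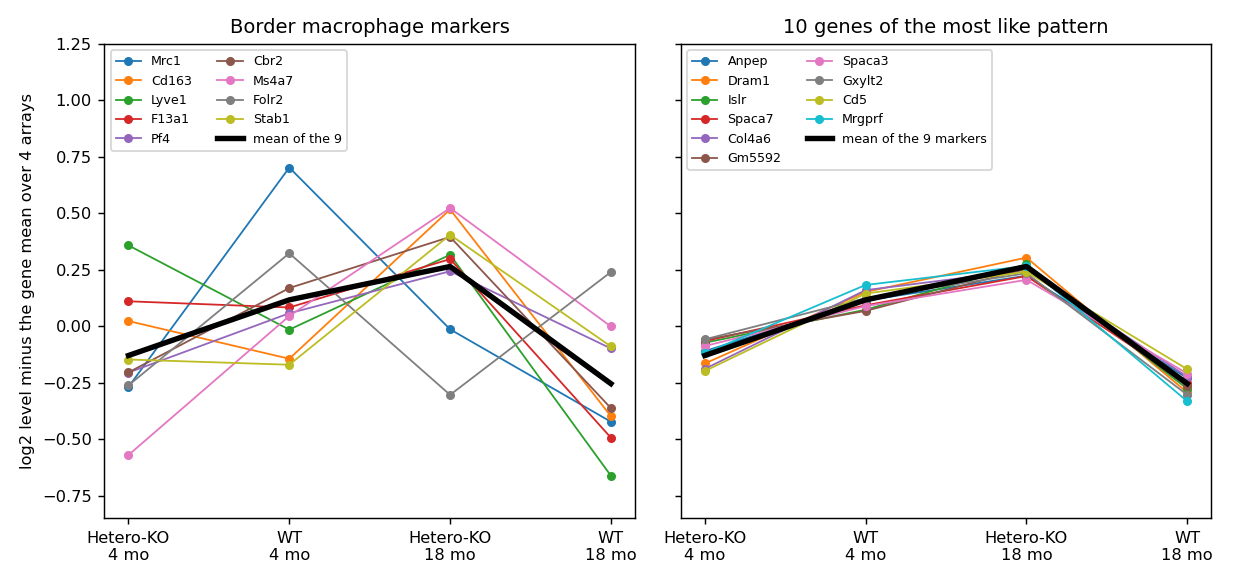
log2 level of each gene minus its mean over the 4 arrays, for the 9 markers (left) and the 10 genes of most like pattern (right), with the mean profile of the 9 in black on both sides. The mean profile is highest on the hetero-KO array of 18 months and lowest on the WT array of 18 months, and the 10 genes were picked for their closeness to it.

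Promoter sequence was available in RefSeq (assembly GRCm38.p6) for 8 of the 9 genes, in 11 windows of 300 bases that run from 250 bases before a transcript start to 50 bases after it. The windows were searched on both strands for the PU box GAGGAA, the core letters of sites for PU.1, a transcription factor that sets up macrophage identity. This motif was in 7 of the 11 windows, from 6 genes, and in 28.3% of all 32851 windows. ACATCTG, an E-box of the kind that RP58 is known to bind, was in 0 of the 11 windows and in 4.43% of all windows. CCAAT was in 6 of the 11 and in 37.4% of all, and TATAAA in 0 of the 11 and in 13.6% of all. No motif searched contains another, and a match is a run of letters and not a shown site.

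The windows of 4 genes are shown, with GAGGAA or its reverse complement TTCCTC in capitals, because they span the results. The Mrc1 window holds it 3 times and the F13a1 window shown here 2 times, while those of Cd163, high in hetero-KO at 18 months, and of Folr2, low in hetero-KO at both ages, hold it 0 times. All are 5′ to 3′ along the gene, in GRCm38.p6 coordinates, which are not those of the probes above.
Mrc1 promoter (chr2:14229164-14229463, plus strand): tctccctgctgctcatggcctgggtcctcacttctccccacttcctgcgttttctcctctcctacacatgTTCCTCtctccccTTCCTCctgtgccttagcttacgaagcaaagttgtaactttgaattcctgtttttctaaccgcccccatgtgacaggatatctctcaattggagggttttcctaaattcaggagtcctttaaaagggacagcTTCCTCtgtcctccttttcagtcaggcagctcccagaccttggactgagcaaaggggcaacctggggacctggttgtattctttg
Cd163 promoter (chr6:124304401-124304700, plus strand): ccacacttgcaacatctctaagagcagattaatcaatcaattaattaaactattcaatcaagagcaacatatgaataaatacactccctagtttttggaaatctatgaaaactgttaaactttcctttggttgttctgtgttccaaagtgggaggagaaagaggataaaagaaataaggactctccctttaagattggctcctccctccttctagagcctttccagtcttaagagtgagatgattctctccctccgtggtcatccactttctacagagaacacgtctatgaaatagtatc
F13a1 promoter (chr13:37050195-37050494, minus strand): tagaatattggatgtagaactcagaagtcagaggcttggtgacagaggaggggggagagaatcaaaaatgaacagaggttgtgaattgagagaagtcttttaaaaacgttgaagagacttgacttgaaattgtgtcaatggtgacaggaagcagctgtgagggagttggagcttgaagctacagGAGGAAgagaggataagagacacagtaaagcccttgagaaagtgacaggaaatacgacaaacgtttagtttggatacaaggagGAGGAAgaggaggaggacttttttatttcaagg
Folr2 promoter (chr7:101845282-101845581, minus strand): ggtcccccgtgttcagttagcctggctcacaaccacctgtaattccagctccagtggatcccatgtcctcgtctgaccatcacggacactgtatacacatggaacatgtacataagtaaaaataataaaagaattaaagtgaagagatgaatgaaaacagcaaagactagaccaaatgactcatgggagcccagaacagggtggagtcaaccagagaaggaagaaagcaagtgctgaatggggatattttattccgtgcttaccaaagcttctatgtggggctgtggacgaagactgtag
Windows with and without the motif occurred among genes higher in hetero-KO at 18 months.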

How the data were processed

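Members and gene lists were chosen with earlier results of these data known. Deposited were scanner files with the linear intensity of each spot; per the file headers, protocol GE1_1105_Oct12 with Agilent Feature Extraction (version 11.5.1.1, per the submitters' processing notes) made the processed signal from 62976 spots on build mm9. The authors also deposited a table covering the 4 samples, as a linear ratio that for the 4-month arrays equals the signal over the array's 75th percentile. From the deposited intensity, log2 values minus the array's 75th percentile were formed, control and outlier spots left out, and spots of a probe averaged. A probe was measured where 50% or more of its spots passed the software's test against background, and a gene was represented by its probe of highest mean level. Of 56605 probes, 32994 had symbols updated through RefSeq accessions (GRCm38.p6); the others kept the file's name. The fit used limma 3.58.1 in R 4.3.3 with a variance trend on genes measured on at least 2 arrays. Benjamini-Hochberg adjustment was over all 29076 genes. The fit was tried on simulated data with genotype differences equal at both ages and a spread set by level, as it assumes. There it recovered 181 of 200 genes changed 2-fold, with 7 false calls. Genotype differences that change with age were not simulated, so the trial does not cover them. Named were all 9 members, from each other list at most the 3 genes with the largest genotype difference at 18 months, and the 10 genes of most like pattern. A few others were named where they carried most of a summed level, stood on more than 1 list or described the arrays. Nothing in the labels ties samples across groups, and precision is limited by 1 array per group. Alternatives were normexp background correction, quantile normalization, the mean of a gene's probes, the authors' table, other filters, no variance trend and a model without the other factor.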

Additional observations from a re-analysis of the deposited data

Results flagged for a closer look

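With 1 array per group no sample can be set against others of its group, and none of the differences in this section was tested. Each value is the log2 genotype difference (hetero-KO minus WT) at 18 months minus that at 4 months, for genes and lists whose difference had opposite signs at 4 and 18 months and for members whose age difference had opposite signs in hetero-KO and WT.

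Among the 9 markers it was 1.38 for Mrc1, 1.14 for Ms4a7, 1.13 for Cbr2, 0.76 for F13a1, 0.75 for Cd163 and 0.60 for Pf4. Cd163 and F13a1 stand here for their age difference alone, 0.49 in hetero-KO and -0.25 in WT for Cd163 and 0.19 in hetero-KO and -0.58 in WT for F13a1. The value of 0.19 for F13a1 lay within the spot error. The median over the 9 genes was 0.75.

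The list medians were 0.28 for other border macrophage genes, 0.16 for haem and iron handling genes, 0.27 for macrophage growth factors and regulators, 0.59 for monocyte and neutrophil genes and 0.42 for dendritic cell genes. They were 0.58 for meningeal fibroblast markers, 0.53 for red blood cell genes, 0.33 for endothelial markers, 0.16 for mural cell markers and 0.12 for hippocampal neuron markers, and -0.088 for platelet and megakaryocyte genes.

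Among genes named from these lists, S100a9 and S100a8, calcium-binding proteins of neutrophils, had 3.19 and 3.12, and Ccl8 had 2.59. Values of 1.75 for Clec4n, 1.67 for Chil3, 1.47 for Fmod, 1.45 for Slc6a13, 1.44 for Foxc2, 1.40 for Aldh1a2, 1.31 for Clec10a, 1.30 for Vwf, 1.12 for Lyz2 and 1.07 for Cd209a followed. Below these lay 0.68 for Alas2 and for Anpep, 0.63 for Hbb-bt, 0.61 for Tagln, 0.56 for Hba-a1, 0.51 for Cdh5, 0.46 for Cd14, 0.45 for Runx1, 0.40 for Irf8, 0.39 for Slc17a7, 0.38 for Olfml3, 0.34 for Ly6c1 and 0.33 for Ms4a1. Negative values were -1.53 for Ccl21a, a chemokine of lymphatic vessels, -0.57 for Ppbp and -0.26 for Cd79b.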

How the results depend on the processing

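No paired analysis was possible because each group holds 1 array and the labels give no replicate numbers; leaving out an array was not run for the same reason. Of the 45 differences of single members, quantile normalization left all 45 within the spot error of the values above and turned no sign, and normexp and averaged probes left 36 each within it. Normexp turned the sign of 3 small ones (Ms4a7 by age in WT to 0.045, Folr2 by age in WT to 0.0058 and Folr2 for genotype by age to -0.041), averaged probes that of 1 (Cd163 at 4 months to -0.40), and the authors' deposited table that of 18. In that table, whose 18-month columns match no scanner file, the median genotype difference at 18 months was -0.21 with 2 of 9 genes higher (Mrc1 -0.37, Cd163 -0.17, F13a1 -0.26, Pf4 -0.21, Cbr2 -0.021, Ms4a7 -0.89). Its age difference in hetero-KO had a median of -0.45 with 0 of 9 higher (Mrc1 -0.45, Cd163 -0.69, Pf4 -0.085, Cbr2 -0.40, Ms4a7 -0.58, Stab1 -0.15), and in WT 0 of 9 were higher, against 3 of 9 with normexp. The excess of the 18-month over the 4-month genotype difference had a median of 0.0085 there with 5 of 9 above 0 (Cd163 -0.33, Lyve1 -0.023, F13a1 -0.28, Ms4a7 -0.28), and 5 of 9 fell with age in limma, where Stab1 had -0.15. The causes were not tested.

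Counts over all genes moved more. Genes 2-fold or more higher and lower numbered 196 and 180 by genotype at 4 months, 145 and 169 at 18 months, 303 and 303 by age in hetero-KO and 218 and 233 in WT. With normexp they numbered 69 and 28, 25 and 41, 87 and 120, and 62 and 71 in the same order, and with no filter on dim probes 845 and 1292, 1051 and 1073, 1532 and 1167, and 1141 and 1163. In the deposited table the age counts were 868 and 1281 in hetero-KO and 987 and 1509 in WT. For genotype limma called 3 rising and 0 falling; rising were 9 with normexp, 1 with mean probes, 1 in the table, 0 with no filter, 8 with genes measured on all 4 arrays, 0 without a variance trend and 1 without age in the model, and falling were 5 with normexp, 7 in the table and 2 with genes on all 4 arrays. By age it called 428 rising and 189 falling, against 1148 and 303 with normexp, 54 and 117 with quantile normalization, 4 and 10 with mean probes, 4606 and 5299 in the table, 0 and 0 with no filter, 656 rising with genes on all 4 arrays, 0 and 0 without a trend, and 60 and 70 without genotype in the model. The 2 member probes not above background on any array give no difference of their own.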
